A study of Homo sapiens with 48 samples.

Results

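The unfolded protein response sensors were followed here as 10 genes: the sensors ERN1, EIF2AK3 and ATF6, the ATF6 relative ATF6B, the transcription factor XBP1, the membrane-bound transcription factors CREB3 and CREB3L2, the proteases MBTPS1 and MBTPS2, and EDEM1. They are 10 of the 19775 genes with a probe set of their own on the array, and were taken by name: every probe set whose only gene symbol in the platform annotation is one of the 10. This gave 24 probe sets. HK-2 cells are an immortalized line of human proximal tubular epithelium, the cells that reabsorb filtered solutes in the kidney. They were grown in a hormone-supplemented medium, plated 24 h before treatment, and exposed to a compound or to its vehicle near confluence. The labels name the compounds as CsA, Fk, Ra and Nnm and give no concentration beyond low and high for Nnm. In the CsA set, cells received CsA or vehicle for 12 or 48 h. In the Fk and Ra set, cells received Fk, Ra or vehicle for 12 or 48 h, and both compounds share their controls. In the Nnm set, cells received Nnm at a low or a high dose or vehicle for 24 or 48 h, and both doses share their controls. Each of the 16 groups holds 3 arrays labelled as biological replicates, 48 arrays in all. The labels place the CsA set in lab 3 and name no laboratory for the other sets, so that set and laboratory cannot be told apart.

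The unfolded protein response matches the folding capacity of the endoplasmic reticulum to the load of new proteins. ERN1 (IRE1) is a membrane kinase and RNase that splices XBP1 mRNA into the form encoding an active factor. EIF2AK3 (PERK) phosphorylates eIF2 alpha, which slows translation and favours ATF4. ATF6 and ATF6B travel to the Golgi, where the site-1 protease MBTPS1 and then the site-2 protease MBTPS2 release their active parts. The same proteases release CREB3, CREB3L2 and the sterol regulators. EDEM1 delivers misfolded glycoproteins to degradation and is a classic target of XBP1. In the proximal tubule the response has been studied in drug and ischaemic injury. The arrays measure mRNA, not splicing, phosphorylation or cleavage. In such bulk RNA, fewer cells of a type and less RNA per cell cannot be told apart.

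ATF6, XBP1 and ATF4 act through short DNA elements near the starts of their target genes. The stretch before the start of XBP1 is shown because it is the member with such an element and one that changed with time and with Ra, and parts of 3 target promoters are shown for comparison. All 10 genes have a promoter in the RefSeq table of GRCh38.p14, in 12 windows, and the 250 bases before each start were searched on both strands. XBP1 lies at chr22:28794560-28800569, and its upstream stretch at chr22:28800570-28800819 on the minus strand holds 1 endoplasmic reticulum stress element (CCAAT, any 9 bases, CCACG), at bases -52 to -34 from the start. In the sequences here, capitals mark the matches. HSPA5, the chaperone BiP, carries the same element at -66 to -48 (chr9:125241371-125241429, minus strand). HERPUD1, a degradation factor, carries the second stress element (ATTGG, any base, CCACG) at -117 to -107 and a C/EBP-ATF site (TGATG, any base, AA, here on the other strand) at -176 to -169 (chr16:56931946-56932055, plus strand). SDF2L1, a chaperone partner, carries the second stress element on the other strand at -188 to -178 (chr22:21642094-21642144, plus strand).
XBP1: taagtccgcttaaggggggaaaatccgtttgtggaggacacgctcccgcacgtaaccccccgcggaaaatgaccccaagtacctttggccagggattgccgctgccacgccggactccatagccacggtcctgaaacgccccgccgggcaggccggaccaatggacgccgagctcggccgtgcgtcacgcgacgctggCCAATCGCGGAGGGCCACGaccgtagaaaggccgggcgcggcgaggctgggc
HSPA5: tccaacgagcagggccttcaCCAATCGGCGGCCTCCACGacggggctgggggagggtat
HERPUD1: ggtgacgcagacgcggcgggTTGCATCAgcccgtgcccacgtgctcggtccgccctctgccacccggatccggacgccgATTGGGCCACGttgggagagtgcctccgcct
SDF2L1: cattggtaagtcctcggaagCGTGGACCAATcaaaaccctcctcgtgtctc
The first element was found in 26 of all 35116 windows (0.074%) and the second in 18 (0.0513%). Among members, only XBP1 held the first element and none held the second, the core TGACGTG of the unfolded protein response element (1.68% of windows) or the C/EBP-ATF site (3.14%). Of 13 ATF6 target genes listed, 12 had a window, 5 of them with the first element and 3 with the second. Of 14 genes of the PERK and ATF4 arm, 12 had a window and 4 held the C/EBP-ATF site. A match describes these letters in this window, and the absence of one says nothing about the factor.

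Values are the deposited log2 signals, in which 1 unit is a doubling. Probe sets differ in brightness, so levels were compared between arrays and not between genes. Of the 24 member probe sets, 17 of 9 genes exceeded log2 4 in at least 3 arrays and were tested. The 7 others were 3 of ATF6B and 1 each of CREB3L2, EIF2AK3, ERN1 and MBTPS2. ATF6B was at most 3.54 on any array, so that this ATF6 relative could not be followed. A change was called at an adjusted p below 0.05 in limma over all 20960 tested probe sets. Beside the main counts stands the share of all tested probe sets called by the same rule. Counts from most alternative runs, such as those with an array left out, stand without it. Member counts at an unadjusted p stand beside the number of all 20960 probe sets. Where groups are said not to overlap, the share of all probe sets without overlap was not counted, so this describes the arrays only.

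The median of the tested probe sets lay at 6.76 on Ra 48 h replicate 2 and between 7.46 and 7.80 on all others. The difference of all probe sets between Ra and control at 48 h had a median of -0.175, so Ra 48 h changes are given after centring every array on its median, with the deposited values beside them. In the Nnm set, treated arrays numbered 2 stood apart from those numbered 1 and 3 for several members, such as ERN1. The control arrays numbered 2 were not low for ERN1. They read 6.67 at 24 h, against 6.20 and 6.50, and 7.48 at 48 h, against 7.97 and 6.66. Of 7 epithelial markers, 5 (KRT8, KRT18, KRT19, EPCAM and PAX8) exceeded log2 4 on every array. Of 10 proximal tubule markers with a probe set, CDH6 did so on every array, 7, among them the water channel AQP1 and the uptake receptors LRP2 and CUBN, on none. Of the markers of other cells, 4 of 4 of leukocytes and 5 of 6 of endothelium were above it on no array. Of 7 fibroblast-associated markers, COL1A1, DCN and LUM were above it on all arrays and 4 on none.

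Across the 16 groups, 4 groups at 48 h held the highest mean levels of ERN1, XBP1, CREB3L2 and EDEM1: CsA, its control, Fk, and the control of Fk and Ra. ERN1 averaged 10.79 ± 0.35 (SD, n = 3) in CsA 48 h, 10.73 ± 0.71 in its control, 10.06 ± 0.66 in the Fk and Ra set control at 48 h and 9.98 ± 0.47 in Fk 48 h, and these neighbours lay within each other's spread. Nnm high dose followed at 9.09 ± 1.72 at 48 h and 8.42 ± 1.61 at 24 h, with the widest spread of its set. The 2 lowest ERN1 means were the Fk and Ra set control at 12 h (6.25 ± 0.29) and Ra 12 h (6.27 ± 0.19). Ra 48 h stood beside them at 6.39 with the largest spread of all groups (SD 2.15). XBP1 ran from 8.70 ± 0.10 in the Nnm control at 24 h to 11.16 ± 0.45 in the Fk and Ra set control at 48 h. EIF2AK3 ran from 8.92 ± 0.08 in Nnm low dose 24 h to 10.62 ± 0.51 in the Fk and Ra set control at 48 h. ATF6 ran from 7.80 ± 0.21 in Fk 12 h to 10.05 ± 0.09 in CsA 48 h. CREB3L2 ran from 7.74 ± 0.80 in Ra 48 h to 10.41 ± 0.23 in CsA 48 h, and EDEM1 from 7.23 ± 0.77 in Fk 12 h to 9.84 ± 0.47 in CsA 48 h. For the proteases the brighter probe set of each gene stayed within a narrow range. Its MBTPS1 group means lay between 9.52 and 10.03, with both Ra groups at the top. Those of MBTPS2 lay between 10.06 and 11.05, whereas the dimmer MBTPS2 probe set ran from 6.59 in Ra 48 h to 8.54 in CsA 48 h.

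**Figure D1:**
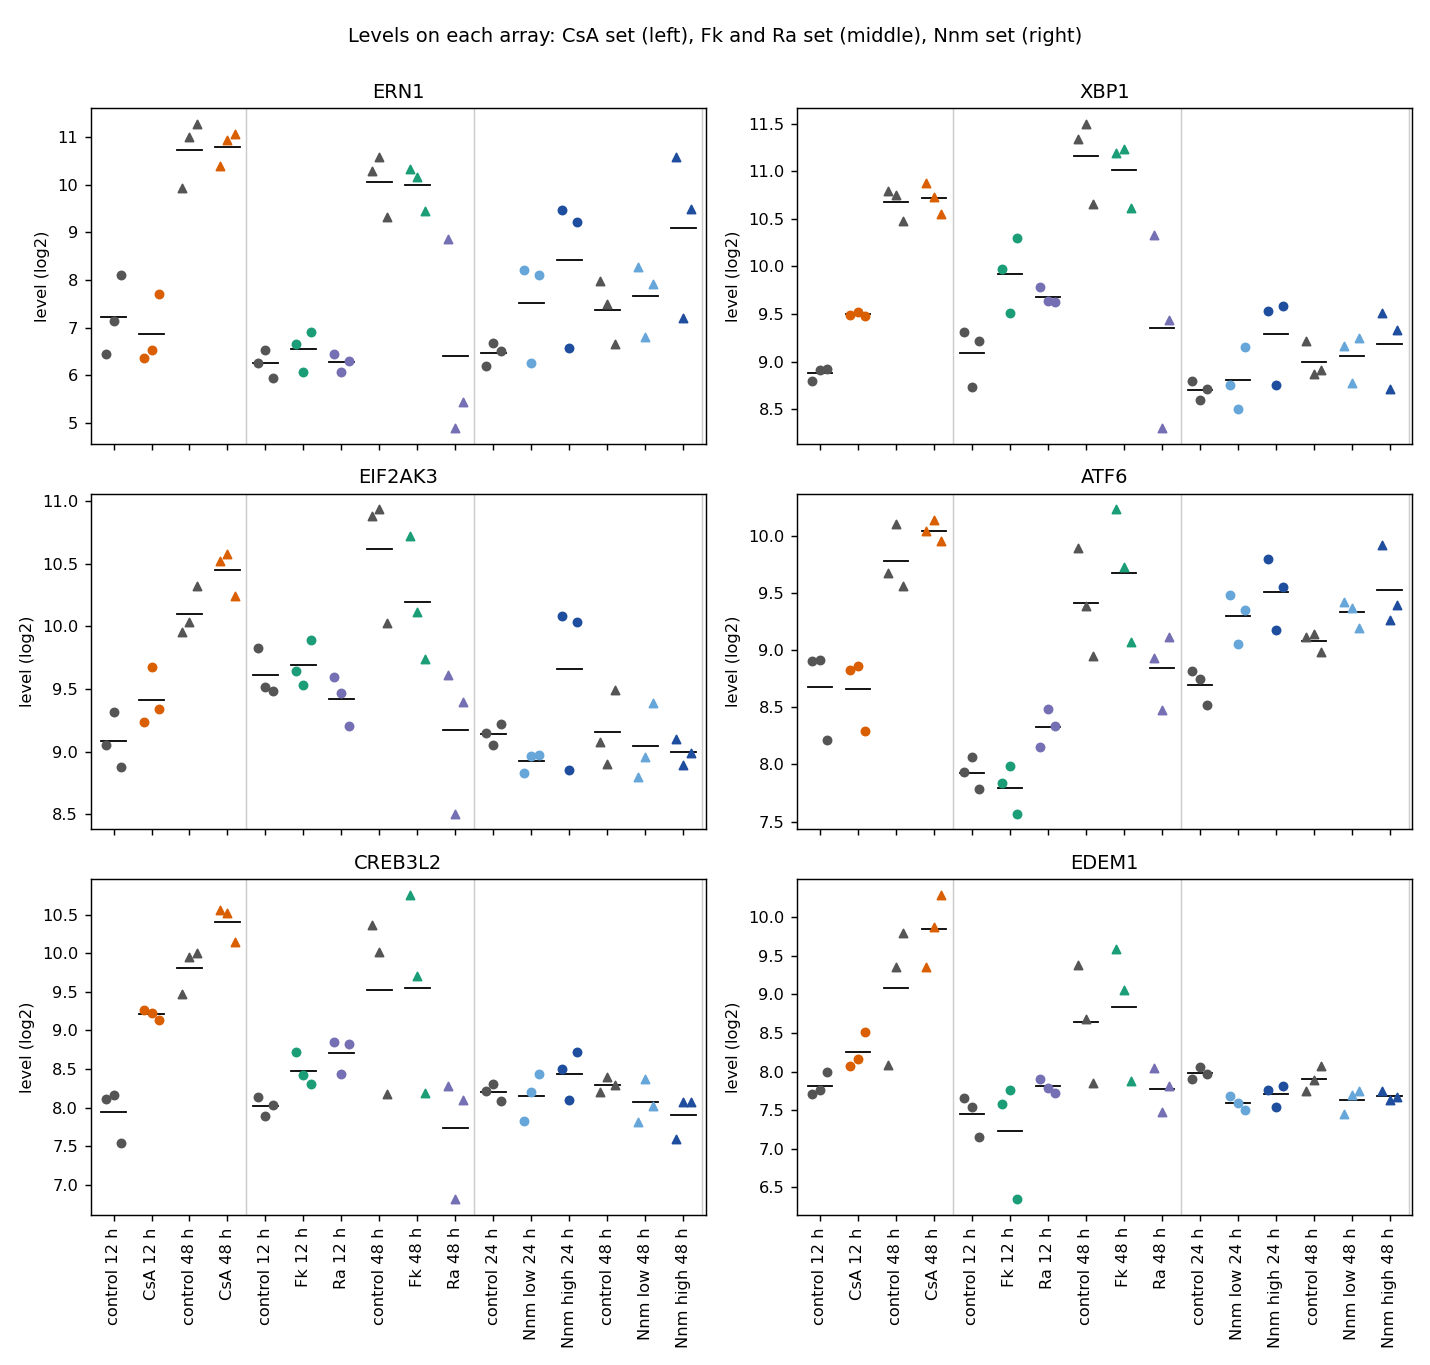
Deposited log2 level of the probe set with the highest mean of 6 genes, 1 point per array (circles, the earlier time; triangles, 48 h) and a bar at each group mean, in 16 groups. At 48 h CsA, its control, Fk, and the control of Fk and Ra had the highest means for ERN1 and XBP1, from 9.98 to 10.79 for ERN1. The means of Ra 48 h and of the Nnm groups lay below them.

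The first comparison asks what happens in vehicle-treated cells between 12 and 48 h. In both sets with a 12 h time, the sensors and their partners rose together: ERN1, XBP1, EIF2AK3, ATF6, CREB3L2 and EDEM1. In the CsA set controls 9 of 17 probe sets were higher and 0 lower (all probe sets: 5.13% higher, 6.26% lower). In the Fk and Ra set controls 10 were higher and 0 lower (8.6% and 8.36%). Among the 10 was a second, dim CREB3L2 probe set. It passed the filter through 4 arrays, all at 48 h and some of them these controls, so that the filter favoured its rise. The median change of the 17 was 0.99 in the CsA set and 1.01 in the Fk and Ra set, against -0.01 and 0.02 over all probe sets. A dim ERN1 probe set among the 17 also passed the filter through 48 h arrays only, 3 of them. In the CsA set the median is its change, and it read 2.54, 2.53 and 5.75 in the 48 h controls. That median thus rests on 1 array and on a probe set that the filter favoured.

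ERN1 showed the widest rise. In the CsA set controls it read 6.45, 7.14 and 8.11 at 12 h and 9.93, 10.99 and 11.28 at 48 h. In the Fk and Ra set controls it read 6.26, 6.53 and 5.95 at 12 h and 10.29, 10.57 and 9.32 at 48 h. No 12 h array reached a 48 h array in either set. The rise was 3.50 ± 0.762 (SE; 11.3-fold; adjusted p = 0.00301) and 3.81 ± 0.762 (14-fold; adjusted p = 0.000756). XBP1, which ERN1 splices, read 8.80, 8.91 and 8.92 at 12 h and 10.79, 10.75 and 10.48 at 48 h in the CsA set. It read 9.31, 8.74 and 9.22, then 11.34, 11.50 and 10.65, in the Fk and Ra set. These groups do not overlap, and XBP1 rose by 1.80 ± 0.303 (adjusted p = 0.000343) and 2.07 ± 0.303 (adjusted p = 2.55e-05). A second, dim XBP1 probe set near log2 4 moved by 0.05 and 0.01 and was not called.

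EIF2AK3, the sensor that slows translation, rose by 1.02 ± 0.272 in the CsA set (9.06, 9.31 and 8.88, then 9.95, 10.03 and 10.32; adjusted p = 0.013). In the Fk and Ra set it rose by 1.01 ± 0.272 (9.83, 9.51 and 9.49, then 10.89, 10.94 and 10.03; adjusted p = 0.00909). All 4 ATF6 probe sets rose in both sets, by 0.63 to 1.30 in the CsA set and by 0.65 to 1.51 in the Fk and Ra set. The brightest read 8.91, 8.91 and 8.22, then 9.68, 10.11 and 9.57, in the CsA set. CREB3L2, whose released part drives secretory capacity, rose by 1.86 ± 0.415 and 1.50 ± 0.415. In the Fk and Ra set its 48 h controls were 10.37, 10.02 and 8.18, so that 1 array stayed near the 12 h values (8.14, 7.90 and 8.04). EDEM1 rose by 1.26 ± 0.359 (adjusted p = 0.0202) and 1.19 ± 0.359 (adjusted p = 0.0192). Its 48 h controls ran from 8.08 to 9.79 in the CsA set and from 7.85 to 9.39 in the Fk and Ra set, above all 12 h controls of their set (up to 7.99 and 7.66). CREB3 changed by 0.39 ± 0.286 and 0.13 ± 0.286 (adjusted p = 0.425 and 0.822). The protease probe sets changed by -0.21 to 0.29 across both sets, none called. Several of these calls rested on single arrays. In the CsA set controls the EDEM1 call was lost without replicate 1 or 2 at 12 h or replicate 2 or 3 at 48 h (down to 0.90, adjusted p = 0.131), and that of EIF2AK3 without replicate 3 at either time (adjusted p up to 0.074). Of the ATF6 calls there, 1 was lost without replicate 2 or 3 at either time and another without replicate 3 at 12 h. For the Fk and Ra set controls, the calls of EDEM1, EIF2AK3, both CREB3L2 probe sets and 1 ATF6 probe set were lost without replicate 1 at 48 h (EDEM1 0.82, adjusted p = 0.193). EDEM1, EIF2AK3 and CREB3L2 also lost theirs without replicate 2 at 48 h, and EDEM1 and that ATF6 probe set without replicate 3 at 12 h. ERN1 and XBP1 kept their calls in both sets under each alternative run. The Fk and Ra set count fell to 5 without control 48 h replicate 1 and to 6 without replicate 2.

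Other genes of the pathway rose with them. The lists were drawn up from textbook roles with earlier results of these data known. Of 13 ATF6 targets, 9 rose and 0 fell in the CsA set controls, and 7 rose and 0 fell in the Fk and Ra set controls. Over all genes, at 1 probe set a gene, 5.59% and 9.55% rose, and 6.97% and 9.07% fell. The chaperone HSPA5 rose by 2.28 ± 0.324 and 1.64 ± 0.324, and HERPUD1 by 3.40 ± 0.496 and 3.08 ± 0.496. Of 14 genes of the PERK and ATF4 arm, 9 and 11 rose. ATF3 rose by 5.43 ± 1.21 and 5.38 ± 1.21, and DDIT3, the death-linked factor CHOP, by 5.39 ± 0.785 and 4.97 ± 0.785. The amino acid transporter SLC7A11 rose by 5.08 ± 0.748 and 3.97 ± 0.748, and ATF4 itself by 1.53 ± 0.279 and 1.13 ± 0.279. Of 18 XBP1 targets tested, 7 rose in the CsA set and 8 rose and 1 (SPCS3) fell in the Fk and Ra set, led by the co-chaperone DNAJB9 at 3.31 ± 0.532 and 3.13 ± 0.532. Of 19 sensor partners and regulators, 4 rose and 3 fell in the CsA set, and 3 rose and 2 fell in the other. Among them CREBRF rose by 1.95 ± 0.415 and 2.93 ± 0.415, and PPP1R15A, which restores translation, by 1.98 ± 0.537 and 2.68 ± 0.537. A list of 7 held CREB3 relatives and genes linked to the proteases: CREB3L1, CREB3L4, GNPTAB, INSIG1, SCAP, SREBF1 and SREBF2. Of these, CREB3L4 rose in the CsA set (1.93 ± 0.63) and 0 in the Fk and Ra set.

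The Nnm set has no 12 h time. Its controls went from 24 to 48 h with 0 of 17 member probe sets called in limma (0% of all probe sets; 2 members and 1163 of all at an unadjusted p below 0.05). ERN1 read 6.20, 6.67 and 6.50 at 24 h and 7.97, 7.48 and 6.66 at 48 h, a difference of 0.91 ± 0.762 (adjusted p = 0.965). The 24 h and 48 h arrays overlap for ERN1.

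Treated cells were then followed over the same interval, in comparisons added after the data were seen. In CsA cells 11 of 17 probe sets rose from 12 to 48 h and 0 fell (12.1% of all probe sets rose). The 11 include the dim CREB3L2 probe set, which passed the filter through 48 h arrays only. ERN1 rose by 3.93 ± 0.762, from 6.36, 6.53 and 7.70 to 10.39, 10.93 and 11.05. CREB3 rose by 0.95 ± 0.286 (adjusted p = 0.0137). The CREB3 change in CsA cells minus that in controls was 0.56 ± 0.405 (adjusted p = 1). In Fk cells 7 of 17 rose and 0 fell (10.8% of all rose): the 4 ATF6 probe sets, ERN1 (3.44 ± 0.762), XBP1 (1.09 ± 0.303) and EDEM1 (1.61 ± 0.359). In Ra cells 0 of 17 were called (1.53% of all; 2 members and 3759 of all at an unadjusted p below 0.05). ERN1 read 6.44, 6.07 and 6.30 in Ra cells at 12 h and 8.85, 4.88 and 5.44 at 48 h. Replicate 1 was above and the other 2 below the 12 h values. On centred arrays the ERN1 change in Ra cells was 0.39 ± 0.724 and that of XBP1 -0.06 ± 0.245. In Nnm cells over 24 to 48 h, 0 of 17 were called at the low dose (0.0763% of all; 0 members and 951 of all at an unadjusted p below 0.05). At the high dose 0 were called (0.716% of all; 2 members and 2784 of all unadjusted).

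**Figure D2:**
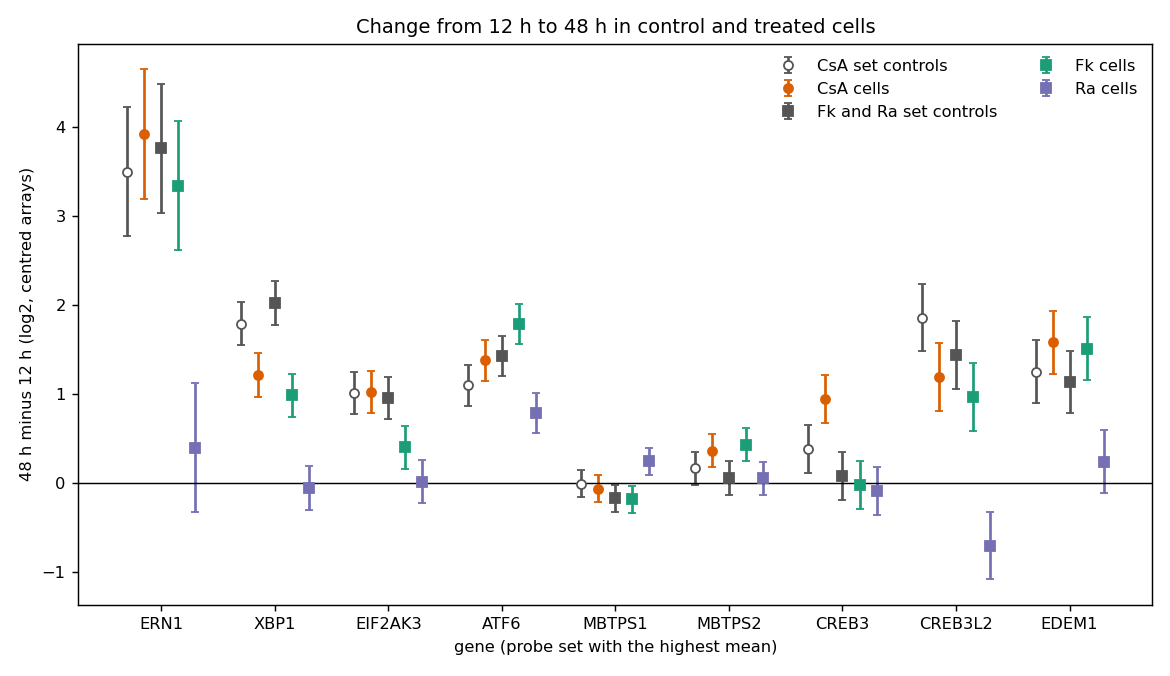
Change from 12 to 48 h (log2, arrays centred on their median) for the probe set with the highest mean of 9 genes, in the controls and treated cells of both sets, with the standard error of the limma fit (3 arrays a group). ERN1 changed by 3.34 to 3.92 in both controls, CsA and Fk cells, and by 0.39 in Ra cells.

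The next comparison asks how each compound differs from its control. Ra at 48 h gave the widest differences. Relative to all probe sets, ERN1, XBP1, CREB3L2 and EIF2AK3 were lower and MBTPS1 was higher. On centred arrays 2 of 17 probe sets were higher and 4 lower (8.05% and 6.18% of all). As deposited 2 were higher and 7 lower (2.49% and 13.8%), the dim CREB3L2 probe set among the 7. The median member change was -0.42 on centred arrays and -0.70 as deposited. The 48 h controls here are the arrays in which these genes had risen since 12 h, so that the 2 comparisons share them.

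ERN1 read 8.85, 4.88 and 5.44 in Ra cells at 48 h, against 10.29, 10.57 and 9.32 in the controls. All 3 Ra arrays lie below all controls, by much less in replicate 1. On centred arrays the ERN1 difference was -3.38 ± 0.724 (10.4-fold; adjusted p = 0.00213), and -3.67 as deposited. XBP1 read 10.32, 8.30 and 9.44 against 11.34, 11.50 and 10.65, again with no overlap. Its difference was -1.52 ± 0.245 (2.88-fold; adjusted p = 0.000144), and -1.81 as deposited. EIF2AK3 read 9.61, 8.50 and 9.39 against 10.89, 10.94 and 10.03. Its difference was -1.16 ± 0.237 (adjusted p = 0.00139), and -1.45 as deposited. These 3 genes kept their call in each alternative run. Without Ra 48 h replicate 2, the array of low median, the deposited differences were -2.91 for ERN1 (adjusted p = 0.031), -1.28 for XBP1 (0.00583) and -1.12 for EIF2AK3 (0.0159).

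CREB3L2 read 8.28, 6.82 and 8.11 in Ra cells against 10.37, 10.02 and 8.18 in controls, so that the groups overlap. Its difference was -1.50 ± 0.379 on centred arrays (adjusted p = 0.00741). The deposited difference was -1.79, and the call was lost without Ra 48 h replicate 2 (-1.33, adjusted p = 0.0658) and without control replicate 1 (-1.36, adjusted p = 0.059). The second CREB3L2 probe set was above log2 4 on 4 arrays in all, 2 of them controls of this comparison. EDEM1, the XBP1 target, read 8.04, 7.47 and 7.82 against 9.39, 8.69 and 7.85. Its difference of -0.58 ± 0.351 on centred arrays was not called (adjusted p = 0.27), nor was that of -0.86 as deposited (adjusted p = 0.0952). CREB3 differed by -0.57 ± 0.269 (adjusted p = 0.149), and the 4 ATF6 probe sets by -0.67 to -0.20 (-0.96 to -0.49 as deposited), none called on centred arrays. As deposited, CREB3 (-0.85, adjusted p = 0.0374), 1 ATF6 probe set (-0.96, adjusted p = 0.0231) and the dim CREB3L2 probe set (-1.34, adjusted p = 0.0148) were called too.

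MBTPS1 went the other way. One probe set read 9.77, 9.33 and 9.80 in Ra cells at 48 h against 8.96, 8.91 and 8.94 in controls, with no overlap. It was higher by 0.98 ± 0.137 on centred arrays (adjusted p = 3.17e-05) and by 0.70 ± 0.135 as deposited. The other read 10.25, 9.61 and 10.15 against 9.33, 9.38 and 9.85, which overlap, and was higher by 0.77 ± 0.151 on centred arrays (adjusted p = 0.000903) and by 0.49 ± 0.154 as deposited (adjusted p = 0.0272). From the deposited values this second call was lost with the sets of the comparison alone and without control replicate 1 or 2 or Ra replicate 1 or 3, at differences of 0.37 to 0.49. MBTPS2, the partner protease, differed by 0.09 ± 0.187 and -0.42 ± 0.271 in its 2 probe sets (-0.20 and -0.70 as deposited), neither called. As deposited, 4 members were called without control 48 h replicate 1, 5 without control 48 h replicate 2 and 5 without Ra 48 h replicate 2.

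**Figure D3:**
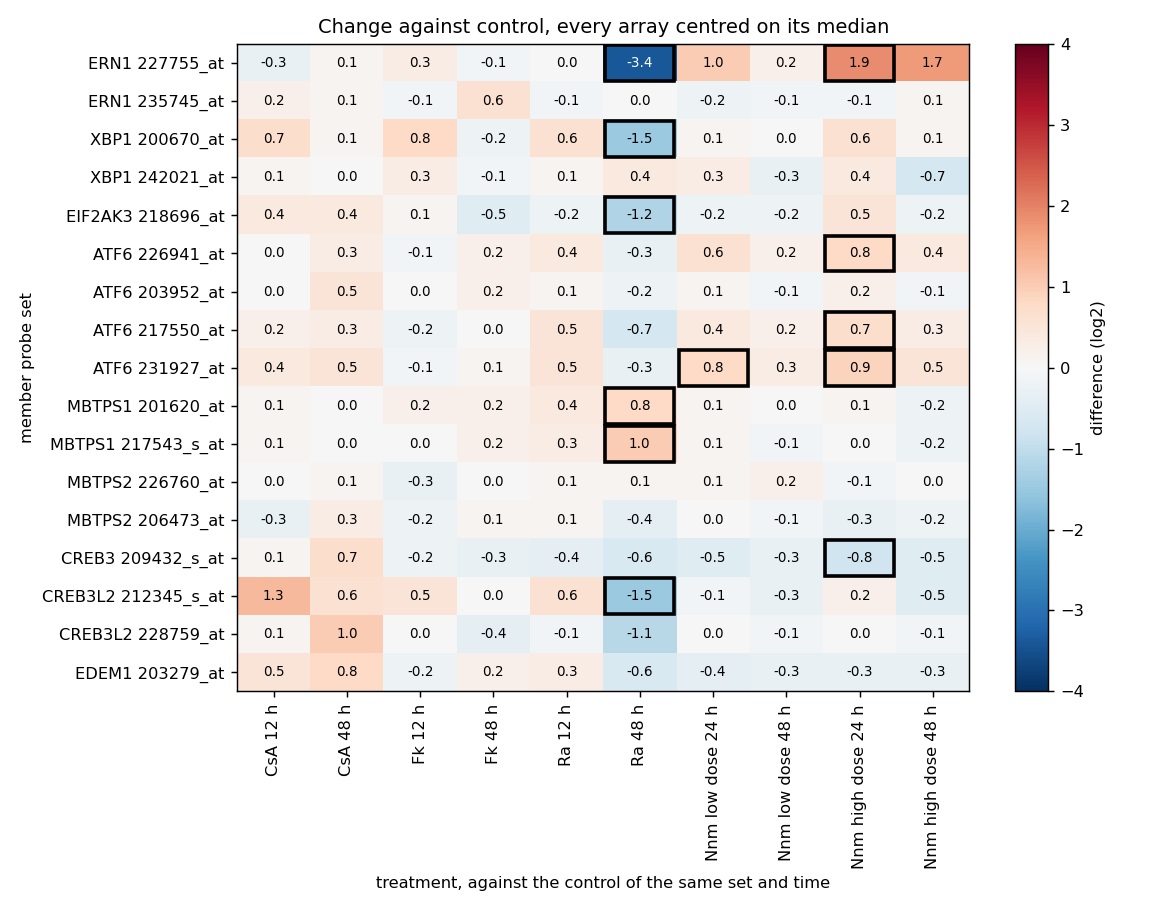
Difference from the control of the same set and time (log2, arrays centred on their median; 3 arrays a group) for the 17 tested member probe sets in 10 treatments; black frames mark an adjusted p below 0.05 on centred arrays. Frames mark 6 probe sets in Ra 48 h, 5 in Nnm high dose 24 h and 1 in Nnm low dose 24 h.

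In the pathway lists at Ra 48 h, most genes of the PERK and ATF4 arm were lower, fewer of the ATF6 and XBP1 targets were, and the sensor partners moved both ways. On centred arrays, over all genes 9.19% were higher and 6.52% lower, with a median of 0.11. As deposited, 2.76% of all genes were higher and 14.8% lower, with a median of -0.178. Of 14 genes of the PERK and ATF4 arm 9 were lower and 0 higher, with a median of -2.07 (as deposited 11 lower, median -2.36). SLC7A11 differed by -3.43 ± 0.709 (-3.71 as deposited), DDIT3 by -3.21 ± 0.771 (-3.50), ASNS, which makes asparagine, by -2.97 ± 0.595 (-3.25) and SESN2 by -2.53 ± 0.394 (-2.81). ATF4 itself differed by -0.74 ± 0.279 (adjusted p = 0.0671), and as deposited by -1.03 (adjusted p = 0.0112). Of 13 ATF6 targets 5 were lower and 0 higher (median -1.22; as deposited 8 lower, median -1.51), among them HERPUD1 (-2.20 ± 0.462; -2.48 as deposited) and HSPA5 (-1.32 ± 0.29; -1.61). Of 18 XBP1 targets 3 were lower and 1 higher (median -0.42; as deposited 11 lower and 1 higher, median -0.70). DNAJB9 (-1.94 ± 0.497; -2.23 as deposited), SEC24D (-1.53 ± 0.333; -1.82) and EDEM3 (-0.76 ± 0.263; -1.04) were lower and the signal peptidase subunit SPCS3 was higher (1.20 ± 0.321; 0.91). Of 19 sensor partners 3 were lower and 3 higher (median -0.04; as deposited 4 lower and 0 higher, median -0.33). DNAJC3, the inhibitor of PERK, differed by -2.37 ± 0.533 (-2.65 as deposited) and PPP1R15A by -1.92 ± 0.523 (-2.20), both called, and MAP3K5, the kinase ASK1 downstream of ERN1, was higher by 1.73 ± 0.503, a call lost as deposited (1.44, adjusted p = 0.055). CREBRF differed by -0.78 ± 0.383 (adjusted p = 0.165; -1.06 as deposited). On either scale none of the 7 CREB3 relatives and protease-linked genes was called.

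**Figure D4:**
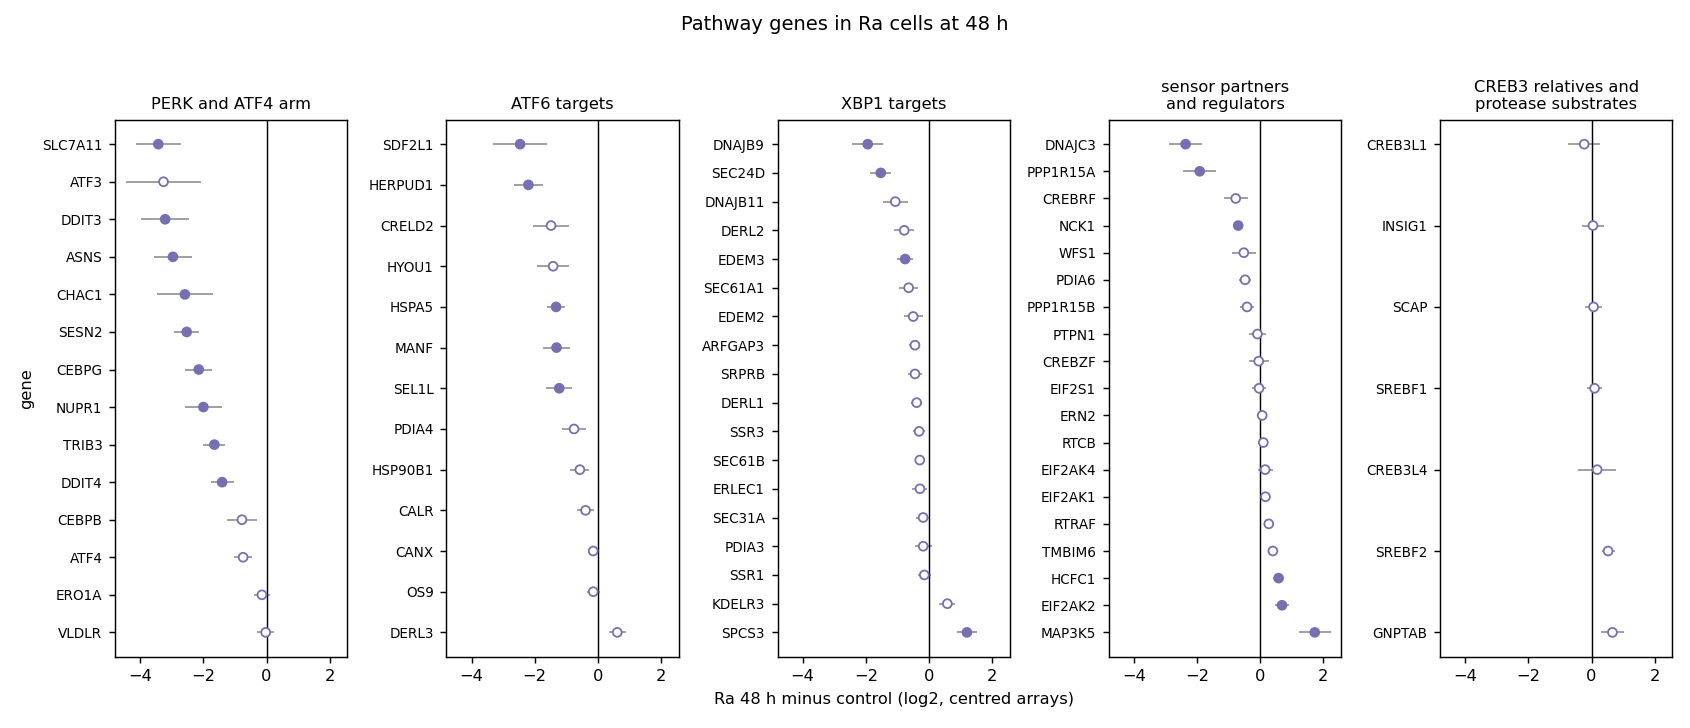
Difference between Ra and control at 48 h (log2, arrays centred on their median, with standard error; 3 arrays a group) for 71 tested genes of 5 pathway lists; filled points had an adjusted p below 0.05. In the PERK and ATF4 arm 9 of 14 genes were filled, all below 0. The panel of CREB3 relatives and protease substrates also holds other genes linked to the proteases.

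Fk shares the 48 h controls with Ra. For Fk against control 0 of 17 were called at 48 h (0% of all; 1 member and 645 of all at an unadjusted p below 0.05). ERN1 read 10.33, 10.17 and 9.44 in Fk cells at 48 h and XBP1 11.19, 11.23 and 10.61, within the range of the controls or just outside it. EDEM1 read 9.59, 9.06 and 7.88 against 9.39, 8.69 and 7.85, so that replicate 3 was the lowest in both groups. Set directly against Ra at 48 h, Fk had 3 probe sets higher and 2 lower on centred arrays (4.91% and 7.28% of all). As deposited it had 8 higher and 1 lower (14% and 1.8%), and in all 2 without Fk 48 h replicate 1, 5 without Fk 48 h replicate 2 and 3 without Ra 48 h replicate 2. On centred arrays ERN1 was higher in Fk by 3.26 ± 0.724 (adjusted p = 0.00346), XBP1 by 1.32 ± 0.245 (adjusted p = 0.000772) and CREB3L2 by 1.49 ± 0.379 (adjusted p = 0.00961). The MBTPS1 probe sets differed by -0.62 ± 0.151 and -0.74 ± 0.137. At 12 h 0 of 17 differed between Fk and Ra (0.00477% of all; 5 members and 1656 of all at an unadjusted p below 0.05).

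The effect of Ra was also tested between 48 and 12 h, as the change in Ra cells minus that in controls. As deposited 3 of 17 were lower (2.47% of all) and 0 higher: XBP1 (-2.40 ± 0.428, adjusted p = 0.00284), CREB3L2 (-2.47 ± 0.587, adjusted p = 0.0223) and 1 ATF6 probe set (-1.51 ± 0.416, adjusted p = 0.0415). On centred arrays 2 were lower (1.09% of all), XBP1 (-2.08 ± 0.346) and CREB3L2 (-2.14 ± 0.536). MBTPS1 was higher there in 1 probe set (1.25% of all were higher), by 0.68 ± 0.193 (adjusted p = 0.0484). For ERN1 the deposited difference was -3.69 ± 1.08 (adjusted p = 0.054), past no threshold. The count was 1 without Ra 48 h replicate 2, Ra 12 h replicate 1, 12 h control replicate 2 or 48 h control replicate 1 or 2, 5 without Ra 48 h replicate 1 and 9 without 48 h control replicate 3. At 12 h itself Ra differed from control in 0 of 17 (0.0668% of all; 1410 of all at an unadjusted p below 0.05, among them 2 members, both of MBTPS1). These read 10.04, 10.15 and 9.90 against 9.63, 9.69 and 9.59 (adjusted p = 0.547), and 9.44, 9.54 and 9.46 against 9.29, 9.06 and 9.08 (adjusted p = 0.574). Neither pair of groups overlaps, though neither difference was called. XBP1 at 12 h read 9.79, 9.63 and 9.63 in Ra cells, above all 3 controls, with a difference of 0.59 ± 0.303 (adjusted p = 0.775).

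CsA gave no call. At 12 h 0 of 17 were called (0% of all; 2 members and 100 of all at an unadjusted p below 0.05). CREB3L2 read 9.26, 9.22 and 9.14 in CsA cells against 8.12, 8.16 and 7.54, a difference of 1.26 ± 0.415 (adjusted p = 1). XBP1 read 9.49, 9.52 and 9.48 against 8.80, 8.91 and 8.92, a difference of 0.62 ± 0.303 (adjusted p = 1). In both genes every CsA array lay above every control, though neither was called. At 48 h 0 of 17 were called (0.83% of all; 4 members and 2353 of all at an unadjusted p below 0.05). CREB3 read 8.98, 9.49 and 9.39 against 8.07, 8.99 and 8.77, and EDEM1 9.35, 9.88 and 10.29 against 8.08, 9.36 and 9.79. These groups overlap, but each CsA array lay above the control of the same number, and the numbers pair the arrays in this set. The differences were 0.67 ± 0.286 (adjusted p = 0.334; 0.117 with the replicate block) and 0.77 ± 0.359 (adjusted p = 0.401; 0.0867 with the block). Centring with the block gave 1 called member. Of the pathway lists, the translocon subunit SEC61B was called at 48 h (0.72 ± 0.175). Without CsA 48 h replicate 1 the member count at 48 h was 1. The effect of CsA exceeded that of Ra at 48 h in 9 probe sets and was below it in 1 (11% and 3.81% of all), each against its own controls. The 9 include the dim CREB3L2 probe set, which passed the filter through 48 h arrays only. On centred arrays the counts were 6 and 2 (6.76% and 7.16% of all). There ERN1 differed by 3.47 ± 1.02 (adjusted p = 0.0208; 3.73 as deposited), EIF2AK3 by 1.53 ± 0.336 (adjusted p = 0.0024; 1.79) and CREB3 by 1.27 ± 0.381 (adjusted p = 0.0228; 1.53). The deposited count was 5 without CsA control 48 h replicate 1, and 5 without Fk and Ra set control 48 h replicate 1. Between the CsA and Fk effects at 48 h 0 of 17 were called (0.0143% of all; 2 members and 1248 of all at an unadjusted p below 0.05). The count was 1 without Fk and Ra set control 48 h replicate 3. For Fk at 12 h 0 of 17 were called (0% of all; 1406 of all at an unadjusted p below 0.05, among them 1 member). This was XBP1, at 9.97, 9.51 and 10.29 against 9.31, 8.74 and 9.22, a difference of 0.83 ± 0.303 (adjusted p = 0.621) with no overlap.

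With Nnm at the high dose for 24 h, 2 of 4 ATF6 probe sets were higher and CREB3 was lower. These are 2 higher and 1 lower of 17, shares near or below those over all probe sets (9.95% and 10.9%). The brightest ATF6 probe set read 9.80, 9.18 and 9.55 against 8.82, 8.75 and 8.52 in controls, with no overlap, and rose by 0.81 ± 0.244 (adjusted p = 0.0165). Another ATF6 probe set read 7.99, 7.38 and 7.90 against 6.96, 7.05 and 6.56, and rose by 0.90 ± 0.271 (adjusted p = 0.0175). The other 2 differed by 0.73 ± 0.294 (adjusted p = 0.0729) and 0.18 ± 0.184 (adjusted p = 0.543). CREB3 read 7.26, 7.87 and 7.44 against 8.24, 8.19 and 8.54, and fell by 0.80 ± 0.286 (adjusted p = 0.0425), a call also lost without control replicate 1 or 2. The member count was 0 without high dose replicate 1, high dose replicate 3 or control replicate 3, and 7 without high dose replicate 2.

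Replicate 2 lacked the higher ERN1 level of the other 2 arrays. ERN1 read 9.47, 6.56 and 9.21 at the high dose for 24 h against 6.20, 6.67 and 6.50 in controls. The difference was 1.96 ± 0.762 (adjusted p = 0.0634), and it was called once replicate number entered as a block (adjusted p = 0.0148). The block gives all arrays of a number in the set the same offset, controls included. For ERN1 replicate 2 was low in treated arrays only, which such an offset does not describe. At 48 h ERN1 read 10.58, 7.20 and 9.49 against 7.97, 7.48 and 6.66, a difference of 1.72 ± 0.762 (adjusted p = 0.122; 0.0355 with the block). At the low dose for 24 h it read 8.20, 6.26 and 8.11. EIF2AK3 at the high dose for 24 h read 10.09, 8.85 and 10.04 against 9.15, 9.05 and 9.22, and XBP1 9.53, 8.76 and 9.59 against 8.79, 8.60 and 8.71. The high dose arrays numbered 2 lay within the range of the controls for ERN1 at both times and for XBP1, and below it for EIF2AK3. What set the treated arrays numbered 2 apart was not tested.

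With the block, the high dose at 24 h had 5 of 17 called (31.5% of all): 3 ATF6 probe sets and ERN1 higher and CREB3 lower. At the low dose for 24 h 0 were called without it (6.8% of all; 2 members and 4628 of all at an unadjusted p below 0.05) and 2 with it (16%), both of ATF6. The brightest ATF6 probe set read 9.49, 9.06 and 9.36 at the low dose, between the controls and the high dose in its mean. At 48 h the low dose had 0 (4.62% of all; 0 members and 3985 of all at an unadjusted p below 0.05). The high dose had 0 at 48 h (15.5%; 3 members and 6199 of all at an unadjusted p below 0.05). With the block it had 2 (25.9%), ERN1 higher and the dim XBP1 probe set lower. High against low dose gave 0 of 17 at 24 h and at 48 h (0.00477% of all at each). At an unadjusted p below 0.05 there were 1 and 0 members, and 1362 and 732 of all. Without high dose replicate 2 the count between doses at 24 h was 1.

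In the pathway lists at the high dose for 24 h, 10.1% of all genes were higher and 12% lower. Of 14 genes of the PERK and ATF4 arm 3 rose and 0 fell: SLC7A11 by 3.27 ± 0.748, DDIT3 by 2.19 ± 0.785 and ATF4 by 0.76 ± 0.279. Of 13 ATF6 targets none was called, and HSPA5 differed by -0.13 ± 0.324. Of 18 XBP1 targets EDEM3 rose by 1.11 ± 0.308, and SPCS3 (-1.77 ± 0.304) and KDELR3 (-0.85 ± 0.242) fell. DNAJB9 differed by 1.09 ± 0.532 (adjusted p = 0.144). Among 19 partners CREBRF rose by 2.05 ± 0.415 and EIF2AK4, an amino acid sensing kinase, by 0.79 ± 0.265, and the phosphatase PTPN1 fell by 1.28 ± 0.289. PPP1R15A differed by 0.60 ± 0.537. SREBF1, a sterol regulator released by the same proteases, fell by 1.08 ± 0.263, 1 of 7 in its list.

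Some probe sets of the members were dim. A second ERN1 probe set exceeded log2 4 on 3 arrays, at 5.59 in CsA 48 h replicate 3, 5.75 in its control replicate 3 and 4.71 in Fk 48 h replicate 2. Another ERN1 probe set, not tested, reached 5.19 and 4.28 in the CsA set control and CsA 48 h replicate 3. Both stayed under log2 4 on all other arrays. The bright ERN1 probe set was high on these 48 h arrays too.

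Genes whose 10 treatment differences ran most like those of a member were ranked by Pearson r over these 10 differences, several of which share control arrays, as a description. For ERN1 these were NUPR1 (r = 0.988), LINC01128, FAM220A, MTHFD2 and LURAP1L. For XBP1 they were PLCXD2, DNAJB9 (both r = 0.976), SETDB2, BLTP3B and ADAM9. For EIF2AK3 they were SELENOK (r = 0.968), NFYC, CCDC59, ACBD3 and HSPA13, and for EDEM1 MROH1 (r = 0.968), LINC01003, LZTFL1, SYT14 and MAP1B. Among the members, ERN1 and ATF6 had r = 0.883, XBP1 and EIF2AK3 0.876, and ERN1 and MBTPS1 -0.705.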

How the data were processed

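Biotin-labelled cRNA of HK-2 cells was hybridised to Affymetrix arrays, 1 per sample. The values are log2 signals, deposited by the authors and made with GCRMA, a method that corrects background, normalizes arrays and summarises probes, per the submitters' processing notes, which give no version. The signals were used as deposited. Of 54675 probe sets, 41091 have 1 gene symbol in the platform annotation, 1801 have several and 11721 were not listed. Probe sets with 1 symbol and values above log2 4 in at least 3 arrays were kept (20960). limma 3.58.1 in R 4.3.3 fitted 16 group means over all 48 arrays, with Benjamini-Hochberg adjustment within each comparison and calls at an adjusted p below 0.05. The scripts were tested on simulated data. P-values measure the spread between arrays labelled as biological replicates, and 3 arrays a group limit the precision.

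All member probe sets were named. Pathway genes were represented by their tested probe set of highest mean, and up to 4 called genes of largest change a comparison were to be named, besides DNAJB9, HSPA5, DDIT3, ATF4, CREBRF and PPP1R15A. Other called pathway genes were named after their values were seen. The members and lists were chosen with earlier results of these data known.

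Replicate numbers were checked for pairing by correlating same-numbered arrays' deviations from their group means. All 18 pairs of the CsA set (0.24 to 0.91) and all 45 of the Nnm set (0.16 to 0.77) exceeded 0.1, so their blocked values are given where they change a call. Alternatives were centring, quantile normalization, no filter on low values, 1 probe set per gene, the sets of a comparison alone, the replicate block and leaving out each array. Leaving out all Nnm arrays numbered 2 or all Fk and Ra set arrays numbered 3, centring with the block, and comparing treated cells over time were chosen after seeing the data. Promoter sequences are from RefSeq, GRCh38.p14.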

Additional observations from a re-analysis of the deposited data

Results flagged for a closer look

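The effect of Ra differed between 48 and 12 h in 3 of 17 member probe sets (2.67% of all), by the test of that difference in limma on the deposited values. The count depended on single arrays, as given above. XBP1 differed by -2.40 (adjusted p = 0.00284), CREB3L2 by -2.47 (adjusted p = 0.0223) and 1 ATF6 probe set by -1.51 (adjusted p = 0.0415). On centred arrays the ATF6 difference was -1.18 (adjusted p = 0.0678).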

How the results depend on the processing

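Over 31 called member differences and 414 alternative values, 346 were still called, 68 were not and 0 reversed. Counts of member probe sets called are given here. With 1 probe set per gene, the CsA against Ra effect at 48 h had 6 (10 in the report) and the Fk and Ra set controls over time 6 (10). With the sets of a comparison alone, these controls had 6, Ra at 48 h 4 (9), Fk against Ra at 48 h 2 (9), the Ra effect over time 0 (3) and Nnm low dose at 24 h 1 (0). On centred arrays Fk against Ra at 48 h had 5, Nnm high dose at 24 h 5 (3) and Nnm low dose at 24 h 1. Quantile normalization gave 5 for Nnm high dose at 24 h, 1 at 48 h (0) and 1 for the low dose at 24 h. The replicate block gave 5, 2 and 2 for these, and changed no other count in the CsA and Nnm sets by over 1.5 times. In the Fk and Ra set the numbers paired the arrays only in part (17 of 45 pairs over 0.1, range -0.15 to 0.71). There the block gave 8 for the Ra effect over time. Centring with the block gave 6 for that effect, 6, 1 and 2 for the Nnm comparisons in the order above, and 1 for CsA at 48 h (0). Nnm arrays numbered 2 were left out after their member levels were seen, so that these counts are no test. Without them there were 5 at the high dose at 24 h (28.8% of all probe sets), 1 at 48 h (21.7%) and 1 between doses at 24 h (2.8%; 0 in the report). Without Fk and Ra set arrays numbered 3 the Ra effect over time had 8.

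Leaving out 1 array in turn gave 0 to 1 for CsA at 48 h, for the CsA against Fk effect at 48 h, for Nnm high against low dose at 24 h and for Nnm high dose at 48 h. It gave 5 to 13 for the CsA against Ra effect at 48 h, 6 to 9 for the CsA set controls, 5 to 10 for the Fk and Ra set controls, 2 to 11 for Fk against Ra at 48 h, 0 to 7 for Nnm high dose at 24 h, 4 to 13 for Ra at 48 h and 1 to 9 for the Ra effect over time. The cause was not tested. The 7 member probe sets under the low filter, all 3 of ATF6B among them, were too dim to be followed.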
